A study of Mus musculus with 8 samples.

Results

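Hyaluronan is a long sugar chain of the matrix around cells, and 9 genes that make it, cut it or bind it were followed in fibro/adipogenic progenitors (FAPs) sorted by their SCA-1 level. The genes were taken by name as hyaluronan synthases (*Has1*, *Has2*, *Has3*), enzymes and proteins of its degradation (*Hyal1*, *Hyal2*, *Cemip*) and binding proteins (*Cd44*, *Vcan*, *Tnfaip6*), and all 9 were found among the 31053 genes counted. *Cd44*, the main cell surface receptor for hyaluronan, was 2.14-fold higher in SCA1-Low-FAPs. Of the 9, 6 had enough counts to be tested, and *Cd44* was the only one of these 6 that was differentially expressed. Of all tested genes, 7.68% were. *Has2* gave nearly all synthase reads in both cell states, and *Vcan* was among the most abundant mRNAs of the cells.

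FAPs are mesenchymal cells of muscle that can become fibroblasts or adipocytes. All samples came from hind limb muscles of 45-day-old C57BL/10ScSn-Dmdmdx/J (*mdx*) mice, which lack dystrophin, so no muscle without the mutation was compared. FAPs with high surface SCA-1 (SCA1-High-FAPs) and with low surface SCA-1 (SCA1-Low-FAPs) were sorted and grown for 5 days in growth medium with serum, and there were 4 samples of each state, numbered 1 to 4. By the series' design the 8 samples came from 4 mice, and it is not stated that equal numbers mark the same mouse. *p*-values therefore measure the spread between samples, some of which share an animal.

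Hyaluronan is made at the plasma membrane, where a synthase joins 2 UDP-sugars in alternation and pushes the growing chain out of the cell. Secreted versican and the heavy chains that TSG-6 transfers bind to the chains and crosslink them into a coat, CD44 holds the coat on the cell, and hyaluronidases and CEMIP cut it into fragments. In muscle this matrix is known to change after injury, when the spaces between fibres swell and fill with cells.

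The samples held 1880561 to 3985656 counts on genes. Values are counts scaled to the library total as CPM with TMM factors, given as mean ± SD with n = 4 per state. A gene was differentially expressed at an edgeR adjusted *p* under 0.05 with a log2 fold change (SCA1-Low-FAPs over SCA1-High-FAPs) beyond 0.5 in size. Of 10181 tested genes, 782 (7.68%) met this, 338 (3.32%) toward SCA1-Low-FAPs and 444 (4.36%) toward SCA1-High-FAPs. The mRNA of the sorting marker ran against the labels. *Ly6a*, which encodes SCA-1, was at 711 ± 184 CPM in SCA1-High-FAPs against 1087 ± 58.8 CPM in SCA1-Low-FAPs (0.61 on the log2 scale, SE 0.17, edgeR adjusted *p* = 0.0341). The sort was on surface protein and took place before culture, and protein was not measured here, so each direction below is between samples as labelled. SCA1-Low-FAPs replicate 3 lay closest to the other state, at 0.16 on the first MDS coordinate against 1.00 to 1.45 in the other SCA1-Low samples. All 7 FAP markers were detected. Of these, *Ly6a* and *Thy1* were higher in SCA1-Low-FAPs, and *Dcn* was higher in SCA1-High-FAPs (590 ± 308 against 140 ± 50.8 CPM). *Pax7*, *Myf5*, *Myod1*, *Myog*, *Tie1*, *Emcn*, *Adgre1* and *Cd52* were at 0 counts in every sample. Other markers of these cells were found at low counts, and the summed CPM was at most 9.80 for 6 myogenic markers (*Itga7* with 44 counts in all) and at most 6.53 for 6 endothelial markers. *Pecam1* (17 counts) and *Cdh5* (11 counts) were seen in SCA1-Low-FAPs only. Of 5 mural markers, with a sum of 16.2 to 39.1 CPM, *Cspg4* was higher in SCA1-Low-FAPs and *Notch3* in SCA1-High-FAPs. Of 3 tenocyte markers, *Scx* (30 counts) was seen in SCA1-Low-FAPs only. *Tnmd* was at 24.0 ± 14.8 CPM in SCA1-High-FAPs against 8.20 ± 4.72 CPM in SCA1-Low-FAPs (edgeR adjusted *p* = 0.0530). The part of such cells in the results was not tested.

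The promoters of *Cd44*, which differed between the states, and of *Tnfaip6*, which had the largest difference the other way among the tested genes of the 9, are shown next for their letters. Each is the 250 bases before the RefSeq start (GRCm38.p6), 5′ to 3′ on the strand of the gene, less any bases that the GENCODE annotation places inside the gene. *Cd44* lies on the minus strand and its 250 bases are at chr2:102901666-102901915. *Tnfaip6* lies on the plus strand, 104 bases were dropped as lying inside the gene, and the remaining 146 are at chr2:52037863-52038008. Capitals mark matches on either strand to 5 short motifs. The TATA box was searched for by the letters TATAAA. The GC box was searched for with the word GGGCGG, the CCAAT box by the letters of its name, and sites of the AP-1 factors with the word TGANTCA. The E-box was searched for in its palindromic form CACGTG.
Cd44: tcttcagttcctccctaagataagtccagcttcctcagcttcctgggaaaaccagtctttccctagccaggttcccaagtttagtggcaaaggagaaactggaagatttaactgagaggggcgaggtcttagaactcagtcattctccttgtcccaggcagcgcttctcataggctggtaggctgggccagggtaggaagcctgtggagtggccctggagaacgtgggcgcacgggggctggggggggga
Tnfaip6: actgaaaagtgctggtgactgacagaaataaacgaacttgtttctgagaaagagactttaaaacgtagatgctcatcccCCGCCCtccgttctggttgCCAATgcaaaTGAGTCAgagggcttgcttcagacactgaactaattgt
The *Cd44* stretch held none of the 5 motifs. Over 32851 mouse promoters, 250 upstream bases held a TATA box in 12.4%, a GC box in 32.7%, a CCAAT box in 33.9%, an AP-1 match in 6.75% and an E-box in 6.02%. The *Tnfaip6* stretch held a GC box on the opposite strand at bases 80 to 85, a CCAAT box at 99 to 103 and an AP-1 match at 109 to 115, none of which overlap. In the same 146-base window of all promoters these were found in 16.1%, 19.4% and 3.86%. A match describes letters only.

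*Has2*, the synthase of long chains in most mesenchymal cells, was the only synthase with more than a few reads. It lies on chromosome 15 at 56665627 to 56694539 (GRCm38, minus strand). Its CPM was 107, 96.7, 186 and 208 in SCA1-High-FAPs replicates 1 to 4, and 104, 155, 240 and 171 in SCA1-Low-FAPs replicates 1 to 4. The ranges of the states overlapped almost wholly. The means were 149 ± 55.9 and 168 ± 56.3 CPM, with a log2 fold change of 0.17 (SE 0.29, edgeR adjusted *p* = 0.807). An interval of 2 SE either way ran from -0.40 to 0.74, which leaves room for a difference in each direction. The 4 highest values belonged to replicates 3 and 4 of both states, which were also the 4 libraries with the most counts, and the part of depth in this was not tested. *Has2os*, an antisense transcript that overlaps *Has2*, was not used here, and the strand setting of the counting is not stated.

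*Has1* and *Has3* were at the limit of detection. *Has1* had 5, 0, 0 and 2 counts in SCA1-High-FAPs replicates 1 to 4 and 7, 1, 1 and 4 in SCA1-Low-FAPs replicates 1 to 4. *Has3* had 3, 0, 0 and 1 counts in SCA1-High-FAPs while each SCA1-Low-FAPs sample had 0. A count of 0 allows up to 3 counts, which is 0.753 to 1.595 CPM in these libraries by counting error alone. Neither gene passed the filter on low counts, no fold is given for them because both states were near this limit, and a difference was not detectable at this depth. *Has2* thus made up 99.0% ± 1.63 of the counts of the 3 synthases in SCA1-High-FAPs against 98.9% ± 1.41 in SCA1-Low-FAPs. In every sample its share was between 96.6% and 100%, and a 3′ library gives a transcript reads near its end whatever its length, so these shares need no length correction. The last bases of *Has3* overlap *Chtf8* on the opposite strand, which had 216 to 637 counts.

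**Figure D1:**
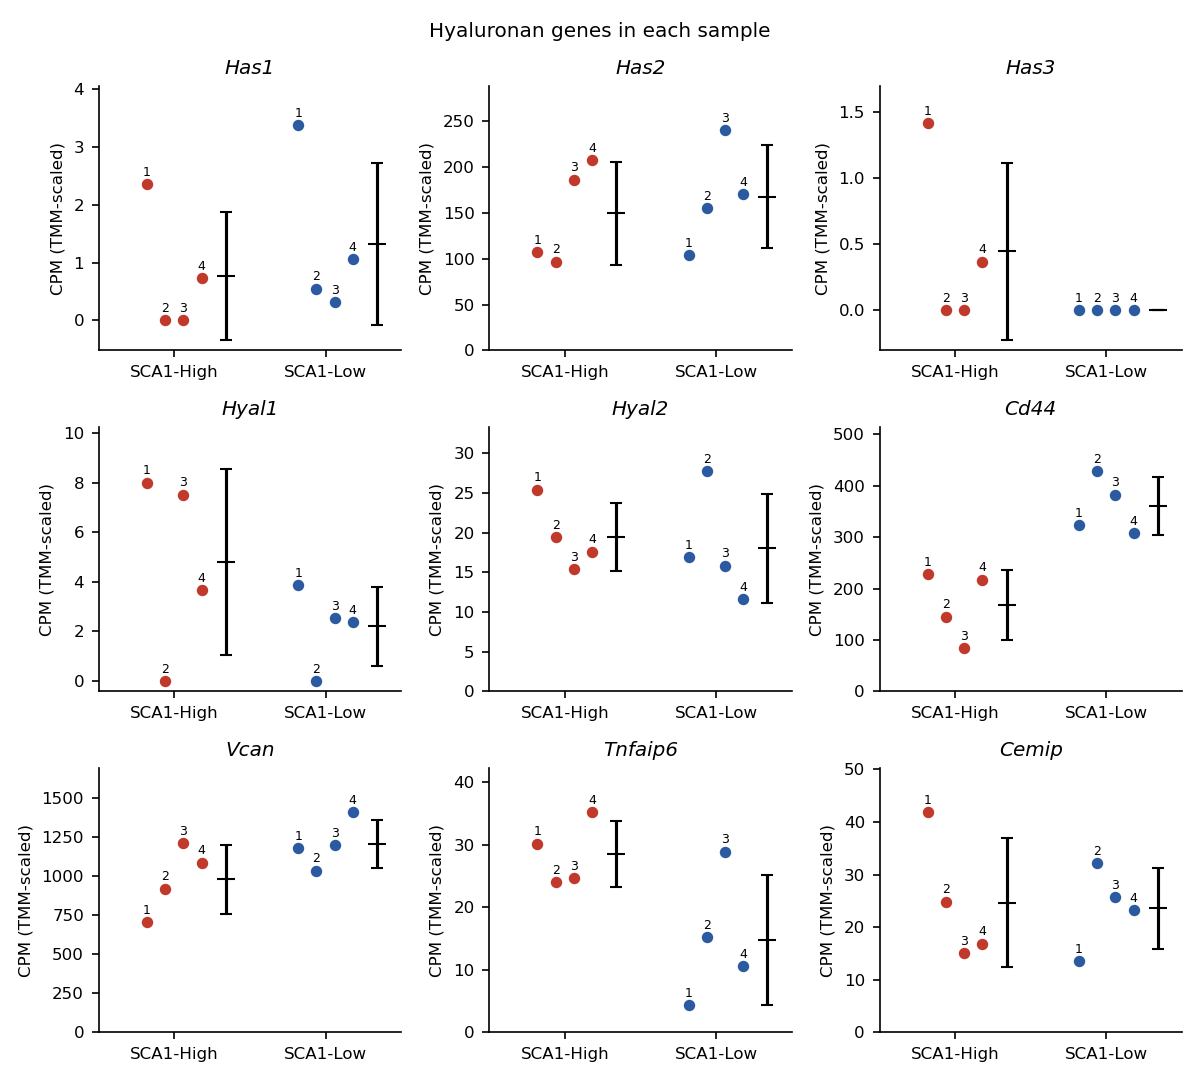
Each panel plots one gene as TMM-scaled CPM (linear axis) in 4 SCA1-High-FAPs samples (red) and 4 SCA1-Low-FAPs samples (blue), numbered by replicate, with the mean and SD in black. All *Cd44* values in SCA1-Low-FAPs (308 to 429) lie above those in SCA1-High-FAPs (83.5 to 228), and the other genes overlap. *Has1*, *Has3* and *Hyal1* rest on few counts.

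*Hyal2*, which encodes a hyaluronidase anchored at the cell surface, was the hyaluronidase with the most reads. It gave 25.4, 19.4, 15.4 and 17.6 CPM in SCA1-High-FAPs replicates 1 to 4 and 16.9, 27.8, 15.9 and 11.6 CPM in SCA1-Low-FAPs replicates 1 to 4. Both the highest and the lowest sample were SCA1-Low-FAPs. Between the states the log2 fold change was -0.13 (SE 0.33, edgeR adjusted *p* = 0.879), with a 2 SE interval from -0.78 to 0.53. *Hyal1*, which encodes the lysosomal hyaluronidase, had 17, 0, 18 and 10 counts in SCA1-High-FAPs and 8, 0, 8 and 9 in SCA1-Low-FAPs. Replicate 2 of both states was at 0 while the 6 other samples had 8 to 18 counts, and the gene did not pass the filter. Without the filter its log2 fold change was -1.06 (SE 0.87, edgeR adjusted *p* = 0.539). On chromosome 9 *Hyal1* (107576927 to 107581710, plus strand) overlaps *Naa80* and *Hyal3* on the same strand, so that reads in the shared part may be missing from its count. *Naa80* had 27 to 62 counts per sample and *Hyal3* had 0.

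*Cemip*, which encodes a protein needed for the breakdown of hyaluronan outside the cell in fibroblasts, was at a level close to that of *Hyal2*. Its CPM was 41.9, 24.9, 15.03 and 16.9 in SCA1-High-FAPs replicates 1 to 4. In SCA1-Low-FAPs replicates 1 to 4 it was 13.5, 32.1, 25.7 and 23.2. Replicate 1 was the highest sample of one state and the lowest of the other. The log2 fold change was -0.05 (SE 0.35, edgeR adjusted *p* = 0.955) with a 2 SE interval from -0.75 to 0.64, and without SCA1-High-FAPs replicate 1 the value was 0.33. Counts of the 3 synthases were 1.47 to 5.48 times those of *Hyal1*, *Hyal2* and *Cemip* together in SCA1-High-FAPs against 2.6 to 5.46 times in SCA1-Low-FAPs. These ratios leave out other degradation genes such as *Cemip2*, which had 383 to 681 counts per sample. They overlapped widely, and a ratio of mRNAs is not a rate of synthesis or degradation.

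*Cd44* was higher in SCA1-Low-FAPs. It lies on chromosome 2 at 102811141 to 102901665 (GRCm38, minus strand), just downstream of the promoter letters shown above. Its CPM was 228, 145, 83.5 and 217 in SCA1-High-FAPs replicates 1 to 4 and 323, 429, 383 and 308 in SCA1-Low-FAPs replicates 1 to 4. Every SCA1-Low sample was above every SCA1-High sample, as in 14.1% of all tested genes when both directions are counted. The means were 168 ± 67.5 and 360 ± 55.7 CPM, with a log2 fold change of 1.10 (SE 0.26, edgeR adjusted *p* = 0.0216) and a 2 SE interval from 0.58 to 1.62. The lowest value, in SCA1-High-FAPs replicate 3, contributed to this size, and without that sample the log2 fold change was 0.87 (edgeR adjusted *p* = 0.00724). The call was lost without SCA1-High-FAPs replicate 2 (1.04, edgeR adjusted *p* = 0.0610) and without SCA1-Low-FAPs replicate 2 (1.01, edgeR adjusted *p* = 0.0646), and it was kept in the other 6 such fits. Without SCA1-Low-FAPs replicate 3, the sample closest to the other state, it was 1.06 (edgeR adjusted *p* = 0.0360).

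Proliferation and adipocyte genes moved with the cell state as well. The summed CPM of 6 cycling markers (*Mki67*, *Top2a*, *Cdk1*, *Ccnb1*, *Birc5*, *Aurka*) was 524 to 734 in SCA1-High-FAPs against 1021 to 1494 in SCA1-Low-FAPs, and all 6 were higher in SCA1-Low-FAPs. That of 6 adipocyte markers was 1107 to 5855 in SCA1-High-FAPs against 120 to 629 in SCA1-Low-FAPs, and 4 of the 6 were higher in SCA1-High-FAPs. Growth was not measured here. The paper reports a shorter doubling time for SCA1-High-FAPs in culture, in an assay seeded at a lower density than the cells sequenced here. Their Ki-67 fell sooner in that assay, which the paper ties to reaching confluence earlier. In *mdx* mice the paper found EdU in a larger part of SCA1-High-FAPs than of SCA1-Low-FAPs. SCA1-High-FAPs replicate 3 had both the lowest *Cd44* and the lowest cycling sum. Within SCA1-Low-FAPs the order differed, since replicates 1 and 4 had the highest cycling sums and the lowest *Cd44*. The part of either marker group in the *Cd44* difference was not tested, and in bulk RNA fewer cells of a kind and less RNA per cell cannot be told apart. Leucocytes also carry CD44. The sum of 8 leucocyte markers was 25.3 to 43.4 CPM in SCA1-High-FAPs against 10.6 to 20.6 CPM in SCA1-Low-FAPs. Most of that sum was *Lyz2*, and *Ptprc* had 1 count over all samples. *Cd68* went with the sum, at 2.88 ± 2.18 CPM in SCA1-High-FAPs against 0.477 ± 0.342 CPM in SCA1-Low-FAPs with no overlap. *Cd14* ran the other way, at 1.58 ± 0.892 CPM in SCA1-High-FAPs against 4.38 ± 0.902 CPM in SCA1-Low-FAPs with no overlap. Neither was tested, for low counts. The part of leucocytes in the *Cd44* difference was not tested.

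*Vcan*, which encodes the large proteoglycan versican, was the most abundant of the 9 mRNAs, above 99.0% of tested genes in mean CPM. It gave 705, 922, 1215 and 1088 CPM in SCA1-High-FAPs replicates 1 to 4. In SCA1-Low-FAPs replicates 1 to 4 it gave 1180, 1037, 1202 and 1413 CPM. SCA1-High-FAPs replicate 1 was the lowest, replicate 3 of that state was within the range of SCA1-Low-FAPs, and replicate 4 was too. Between the states the log2 fold change was 0.30 (SE 0.17, edgeR adjusted *p* = 0.330) with a 2 SE interval from -0.04 to 0.63. For each *Has2* read there were 5.23 to 9.53 *Vcan* reads in SCA1-High-FAPs against 5.00 to 11.4 in SCA1-Low-FAPs, while for *Cd44* it was 0.448 to 2.13 and 1.59 to 3.11. Both ratios overlapped between the states.

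*Tnfaip6*, which encodes TSG-6, the secreted protein that moves heavy chains onto hyaluronan, had the largest difference toward SCA1-High-FAPs of the 6 tested genes but was not differentially expressed. Its CPM was 30.1, 23.96, 24.6 and 35.2 in SCA1-High-FAPs replicates 1 to 4 and 4.35, 15.2, 28.9 and 10.6 in SCA1-Low-FAPs replicates 1 to 4. Of the SCA1-Low samples 3 were below all SCA1-High samples, and replicate 3 was inside their range. The log2 fold change was -0.93 (SE 0.40, edgeR adjusted *p* = 0.191), with a 2 SE interval from -1.74 to -0.12. Without SCA1-Low-FAPs replicate 3 it was -1.52 (edgeR adjusted *p* = 0.0193), and this was the only one of the 8 fits with a sample left out that passed the test. Leaving out SCA1-Low-FAPs replicate 1 instead brought it to -0.64 (edgeR adjusted *p* = 0.380). *Tnfaip6* had 9 to 96 counts per sample, against 200 to 1206 for *Cd44*.

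**Figure D2:**
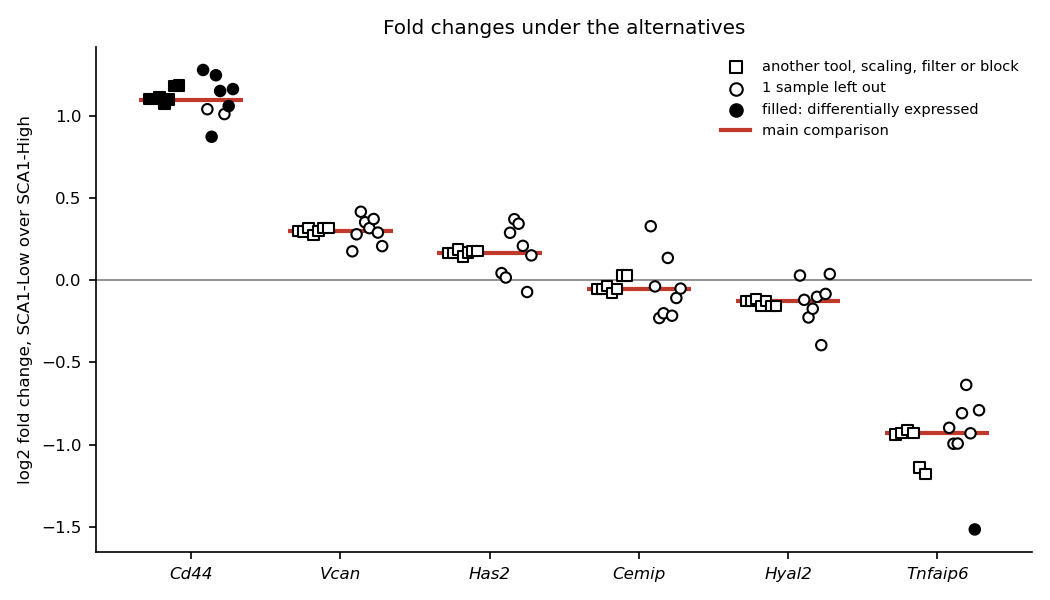
The log2 fold change (SCA1-Low-FAPs over SCA1-High-FAPs) of the 6 tested genes is plotted for the main comparison (red bar), for another tool, scaling, filter or block (squares) and with 1 sample left out (circles). Filled symbols are differentially expressed. *Cd44* stays between 0.87 and 1.28 with 1 sample left out, and *Tnfaip6* is filled only at -1.52.

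Of the 6 genes of the 9 that passed the filter, 1 was thus differentially expressed, beside 7.68% of all tested genes. It was higher in SCA1-Low-FAPs, and none was higher in SCA1-High-FAPs by edgeR or DESeq2. At an unadjusted edgeR *p* under 0.05 there were 2 of the 6, *Cd44* and *Tnfaip6*, beside 2164 of all 10181 tested genes. The median log2 fold change of the 6 was 0.06, and the median size of the change was 0.23, against 0.30 over all tested genes.

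The genes did not vary as one group across samples. Over the 8 samples, which differ in library depth and hold both cell states, the Pearson correlation of log2 CPM between pairs of the 6 ran from -0.80 (*Hyal2* with *Vcan*) to 0.59 (*Hyal2* with *Cemip*). The tested genes most like *Cd44* were *Ccl2* (0.98), *Map2k3* (0.98) and *Srcap* (0.98), and those most like *Tnfaip6* were *Paip2* (0.99), *Tmed3* (0.97) and *Mcee* (0.97). For *Has2* they were *Wdr82* (0.96), *Zbtb10* (0.92) and *Fancl* (0.90), and for *Vcan* they were *Cpt1a* (0.96), *Rpl26* (0.96) and *Rpl14* (0.96). *Hyal2* was closest to *Usb1* (0.94), *Nup133* (0.93) and *Nudt13* (0.91), and *Cemip* to *Pih1d1* (0.96), *Entr1* (0.95) and *Wdr75* (0.94). Each is the top of 10181 genes in 8 samples and is given as a description.

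A further 52 genes of the pathway were listed in 4 groups, of which 40 had a count and 28 were tested. Of the 28, 3 were higher in SCA1-Low-FAPs and 1 in SCA1-High-FAPs, which is 14.3% together, beside 7.68% of all tested genes (3.32% and 4.36% by direction). Their median log2 fold change was 0.07 and the median size was 0.28. DESeq2 called 3 of 40 toward SCA1-Low-FAPs and 2 toward SCA1-High-FAPs, beside 1065 of the 15872 genes it tested in all. The 4 genes called by edgeR sit at different steps, from sugar supply to the link with the cytoskeleton.

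Of the 7 genes that supply UDP-sugars, all tested, 1 was higher in SCA1-Low-FAPs (14.3%, beside 7.68% of all tested genes). *Ugdh*, whose enzyme makes UDP-glucuronic acid, one of the 2 building blocks, gave 91.3, 62.4, 44.3 and 74.8 CPM in SCA1-High-FAPs replicates 1 to 4 and 116, 176, 98.0 and 97.9 CPM in SCA1-Low-FAPs replicates 1 to 4. The states did not overlap. Between the states the log2 fold change was 0.83 (SE 0.23, edgeR adjusted *p* = 0.0375), and the call held in 3 of 8 fits with a sample left out, with values from 0.61 to 1.00. It was lost without SCA1-High-FAPs replicate 2, 3 or 4 and without SCA1-Low-FAPs replicate 1 or 2 (edgeR adjusted *p* from 0.0592 to 0.135). *Gfpt1*, whose enzyme starts the route to the other building block and which had the highest level of the group, was at 139 ± 32.6 and 163 ± 10.9 CPM (log2 fold change 0.23, SE 0.17, edgeR adjusted *p* = 0.486).

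Among 21 other hyaluronan binding proteins and receptors, 7 were at 0 counts, 5 were tested and 1 was higher in SCA1-Low-FAPs. That is 20% of the 5, beside 7.68% of all tested genes. *Hmmr*, which encodes a hyaluronan-binding protein that also works at the mitotic spindle, gave 51.3, 41.6, 32.6 and 76.3 CPM in SCA1-High-FAPs replicates 1 to 4 and 117, 81.1, 107 and 101 CPM in SCA1-Low-FAPs replicates 1 to 4. The states did not overlap, and the cycling sums above moved the same way. The log2 fold change was 1.01 (SE 0.23, edgeR adjusted *p* = 0.0129), and the call was lost only without SCA1-Low-FAPs replicate 1 (0.94, edgeR adjusted *p* = 0.0537). *Ptx3*, which encodes a pentraxin that binds TSG-6 and heavy chains, was the most abundant of the group at 1806 ± 510 and 1573 ± 572 CPM (log2 fold change -0.20, SE 0.25, edgeR adjusted *p* = 0.726). *Ambp*, the source of bikunin, and the heavy chain genes *Itih1* and *Itih4* were at 0 counts, and *Itih3* had 1 count in all. *Itih2* had 82 counts and was not tested. *Itih5*, a further member of that family, was at 44.3 ± 12.5 and 27.4 ± 4.86 CPM (log2 fold change -0.69, SE 0.26, edgeR adjusted *p* = 0.115).

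Of 9 other genes of degradation, 5 were at 0 counts and 4 were tested. None of the 4 was differentially expressed by edgeR or DESeq2, beside 7.68% of all tested genes by edgeR. None had an unadjusted edgeR *p* under 0.05, beside 2164 of all 10181 tested genes. *Cemip2*, which encodes a membrane-bound relative of CEMIP, was the most abundant at 199 ± 21.7 CPM in SCA1-High-FAPs against 197 ± 21.2 CPM in SCA1-Low-FAPs. Its log2 fold change was -0.02 (SE 0.15, edgeR adjusted *p* = 0.969), with a 2 SE interval from -0.31 to 0.28. *Hexa* and *Gusb*, which encode exoglycosidase subunits that finish the chain in lysosomes, had log2 fold changes of -0.23 and 0.06.

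Of 15 partners of versican and CD44, 12 were tested, 1 was higher in SCA1-Low-FAPs and 1 in SCA1-High-FAPs. Together these are 16.7% of the 12, beside 7.68% of all tested genes. DESeq2 tested all 15 and called 1 toward SCA1-Low-FAPs and 2 toward SCA1-High-FAPs. *Msn* encodes moesin, which ties the tail of CD44 to actin. It gave 304, 398, 299 and 286 CPM in SCA1-High-FAPs replicates 1 to 4 and 736, 650, 467 and 853 CPM in SCA1-Low-FAPs replicates 1 to 4. As for *Cd44*, every SCA1-Low sample was above every SCA1-High sample. Between the states the log2 fold change was 1.07 (SE 0.18, edgeR adjusted *p* = 0.00160) and the call held with any 1 sample left out. The related *Rdx* was at 393 ± 73.7 and 383 ± 21.4 CPM (log2 fold change -0.04, SE 0.15, edgeR adjusted *p* = 0.929).

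*Fbln1*, which encodes a fibulin that binds versican-type proteoglycans, was higher in SCA1-High-FAPs. Its samples gave 38.6, 30.3, 79.7 and 41.4 CPM in SCA1-High-FAPs replicates 1 to 4 and 20.8, 31.0, 24.1 and 17.7 CPM in SCA1-Low-FAPs replicates 1 to 4. One sample of each state fell in the range of the other, and SCA1-High-FAPs replicate 3 stood above the rest. The log2 fold change was -1.03 (SE 0.30, edgeR adjusted *p* = 0.0441). This call held only without replicate 2 of either state among the 8 fits with a sample left out, was lost in the other 6 (edgeR adjusted *p* from 0.0543 to 0.182), and was at -0.67 without SCA1-High-FAPs replicate 3. With the replicate number as a block it was lost in edgeR (adjusted *p* = 0.0841) and in DESeq2 (adjusted *p* = 0.0844). *Fbn1*, the fibrillin gene and the most abundant of the partners, was at 1826 ± 259 and 1470 ± 167 CPM (log2 fold change -0.31, SE 0.15, edgeR adjusted *p* = 0.232).

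**Figure D3:**
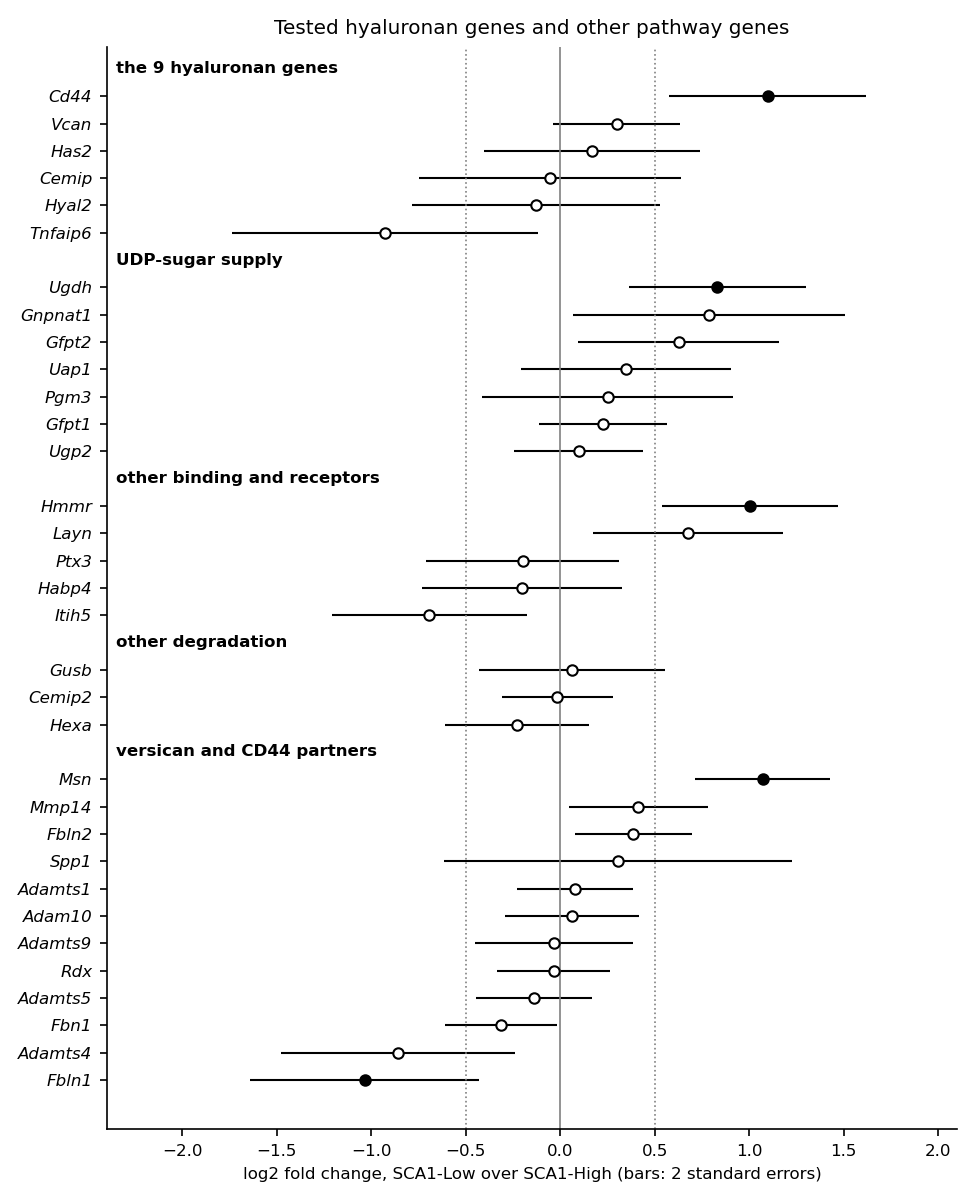
The log2 fold change (SCA1-Low-FAPs over SCA1-High-FAPs) is plotted for the 6 tested hyaluronan genes and 27 other tested pathway genes, with bars of 2 SE either way. Filled points (*Cd44*, *Ugdh*, *Hmmr*, *Msn*, *Fbln1*) are differentially expressed, and dotted lines mark 0.5 in each direction.

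**Figure D4:**
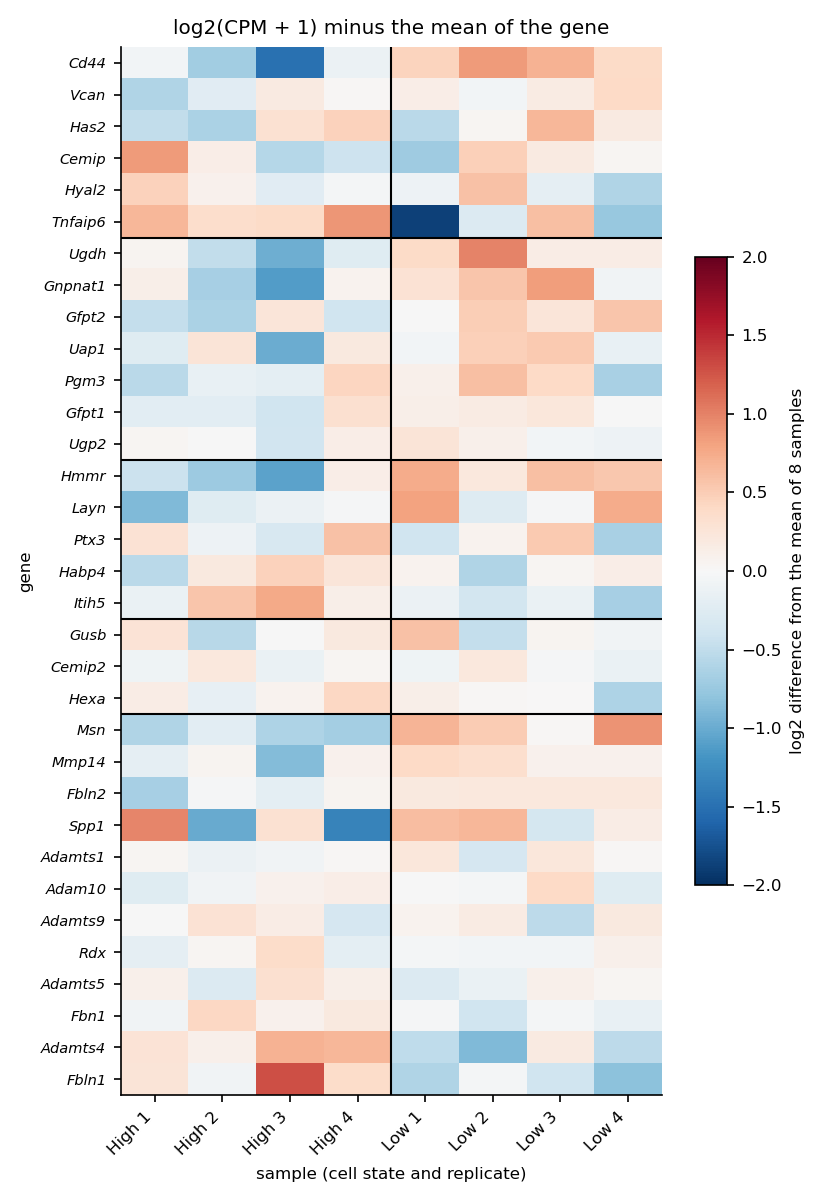
Each cell shows log2(CPM + 1) of a gene (row) in a sample (column) minus the mean of that gene over 8 samples, with red above and blue below, and lines split the states and the gene groups. *Cd44*, *Ugdh*, *Hmmr*, *Msn* and *Fbln2* are lower in each SCA1-High sample than in each SCA1-Low sample. *Has2*, the only synthase shown, and the degradation genes show no such split.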

How the data were processed

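RNA of 8 samples was sequenced from the 3′ end (QuantSeq FWD). Per the labels and the study's methods, the authors aligned reads with STAR 2.6.0a to mm10 and counted unique reads per Ensembl 93 gene with HTSeq, and the deposited values are these raw counts. The strand setting and the use of molecular identifiers are not given in the sources used here. Of 31053 identifiers, 30934 were matched to a symbol. Reads on no gene were left out (13.3% to 16.4% of the reads on a gene, on no gene or ambiguous). Ambiguous reads were left out too, as were those counted as not uniquely aligned (1487727 to 3606277 per sample). Groups follow the labels.

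The states were compared with edgeR 4.0.16 (R 4.3.3), by the robust quasi-likelihood test with TMM, filterByExpr (minimum count 10, total 15) and Benjamini-Hochberg adjustment over all tested genes, and this was tested on simulated data. SE is the standard error of the log2 fold change. Correlations and MDS (limma 3.58.1, 500 genes) used log2 CPM with a prior count of 2. Counting limits of 3 counts cover counting error only. Figures used Python 3.11.15 and matplotlib 3.10.9. Promoters came from the RefSeq table, and 6 of the 9 genes had one usable here.

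The 9 genes and the pathway and marker lists were chosen with earlier results of these data known. Named in the text are the 9 genes, pathway genes differentially expressed or with the highest mean CPM of their group, the 3 most correlated genes, *Ly6a* and marker genes. *Rdx*, *Hexa*, *Gusb*, *Ambp* and the *Itih* genes were named after their values were seen. *Fbln2*, the *Adamts* genes and the genes that overlap or neighbour one of the 9 also fall outside these rules. They were not among the genes planned to be named. Alternatives were DESeq2 1.42.0, RLE scaling, no filter, at least 10 counts in every sample, no robust option, a replicate block, 1 sample left out, an adjusted *p* of 0.01 and no fold limit. In a check of the replicate numbers, same-numbered samples had correlated deviations of -0.05 to 0.01, so the main comparison has no block. The authors' fold changes were not used. The values of 1 tested pathway gene are not reported here, and it is counted but not plotted.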

Additional observations from a re-analysis of the deposited data

Results flagged for a closer look

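*Msn* in SCA1-High-FAPs replicate 2, at 398 CPM, stood apart from the 3 other samples of that state (286 to 304 CPM), with a gap of 0.845 of the group's range, above Dixon's 95% critical value. It was the only such sample in 33 groups of 4 samples, and chance alone gives about 1 in 20. The value lies toward SCA1-Low-FAPs, whose lowest sample was at 467 CPM.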

How the results depend on the processing

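With 1 sample left out, 0 to 2 of the hyaluronan genes, 1 to 4 of the other pathway genes and 410 to 1017 of all genes were differentially expressed. The 0 arose without replicate 2 of either state (*Cd44* lost), the 2 without SCA1-Low-FAPs replicate 3 (*Tnfaip6* gained), the lowest pathway count without SCA1-Low-FAPs replicate 1, and the lowest counts of all genes without SCA1-Low-FAPs replicate 4 (410) and 1 (417). At an adjusted *p* under 0.01 the counts were 0, 1 and 307. No other tool, scaling, filter or fold limit changed these counts by over 1.5 times, and *Cd44* was called under each of them, with edgeR and DESeq2 adjusted *p* from 0.000403 to 0.0244. With the replicate block, 1 hyaluronan gene and 697 genes in all were called in edgeR, and *Cd44* was at 1.18, with no sample correlating best with its own number. *Fbln1* lost its call with the block (edgeR adjusted *p* = 0.0841) and without the robust option (0.0501). Signs of differences near 0 turned. *Cemip* was at 0.0267 with the replicate block in edgeR and 0.0270 in DESeq2, and with 1 sample left out *Cemip* ran from -0.23 to 0.33, *Has2* from -0.0726 to 0.37, *Hyal2* from -0.40 to 0.0367 and *Cemip2* from -0.0855 to 0.0647. Low counts limit *Has1*, *Has3* and *Hyal1*.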

Other observations

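Around the *Hyal1* and *Hyal2* cluster on chromosome 9, the neighbours *Rassf1*, *Tusc2*, *Naa80* and *Ifrd2* had log2 fold changes of 0.12, 0.48, -0.53 and 1.46, and none was differentially expressed (edgeR adjusted *p* for *Ifrd2* = 0.0909). *Ifrd2* did not overlap between the states, at 5.61 ± 2.77 CPM in SCA1-High-FAPs against 15.5 ± 7.21 CPM in SCA1-Low-FAPs. *Fbln2*, another fibulin that binds versican, was at 591 ± 121 and 773 ± 7.27 CPM with no overlap (log2 fold change 0.39, SE 0.15, edgeR adjusted *p* = 0.145), opposite in sign to *Fbln1*, and the difference between these 2 genes was not tested. Of the versican-cleaving proteases, *Adamts4* was at 26.3 ± 5.42 and 14.3 ± 5.05 CPM (log2 fold change -0.86, SE 0.31, edgeR adjusted *p* = 0.103), while *Adamts5*, at 556 ± 92.97 and 505 ± 57.4 CPM, had a log2 fold change of -0.14 (SE 0.15, edgeR adjusted *p* = 0.666). *Adamts1* and *Adamts9* had log2 fold changes of 0.08 and -0.03, and neither was differentially expressed. *Adamts15* and *Adamts20* were not tested.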
